A study of Mus musculus with 24 samples.

Results

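Dendritic cells grown from the bone marrow of C57 mice were compared after treatment with lipopolysaccharide (LPS, endotoxin) and without it. The comparison takes the 4 libraries labelled C57 and LPS and the 4 labelled C57 and untreated, 8 of the 24 libraries of a bulk RNA-seq series on 3 mouse strains, B6, C57 and PWD. All cells had been cultured for a week with the growth factor GM-CSF, and the LPS group then received LPS of Escherichia coli at 10 ng/ml for 6 hours. Each strain is represented by 4 mice, and the replicate numbers 1 to 4 are written here as mouse 1 to 4, although the labels do not state that equal numbers of treated and untreated libraries mark the same animal. PWD mice are inbred from wild-caught animals, and the sources used here do not give how C57 differs from B6, the age of the mice or their sex. Cultures of this kind hold a mixture of cells with dendritic cell and macrophage features and a variable share of granulocytes, so all values are averages over a mixed culture.

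LPS is recognised at the cell surface by Tlr4 together with Ly96 (MD-2), to which Cd14 hands it over. The receptor signals through the adaptor Myd88 at the plasma membrane, which activates NF-kB and AP-1 and through them the genes of inflammatory cytokines. From endosomes it signals through Ticam1 (TRIF), which activates Irf3 and the gene of interferon beta, and the secreted interferon then acts back on the culture through Jak kinases, Stat proteins and Irf9. Dendritic cells that meet LPS mature: they raise antigen presentation and co-stimulatory molecules, gain the migration receptor Ccr7 and stop dividing.

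The values are TPM, transcript abundances per transcript length that sum to 1000000 in every library. Changes are differences of mean log2(TPM + 1), LPS minus untreated, tested with limma, and a gene is called where the Benjamini-Hochberg adjusted p over the 13246 genes tested is under 0.05; "rose" and "fell" are used of called genes only. The standard error (SE) comes from the same fit over all 24 libraries. Read depth cannot be recovered from TPM, so the counting error of low values is unknown.

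Before the results, it has to be said that the LPS libraries of mice 1 and 2 stood apart from those of mice 3 and 4. Structural RNA (7SL, 7SK and similar transcripts, and mitochondrial rRNA) took 39.9% and 41.2% of TPM in LPS libraries 1 and 2, but 31.6% and 33.4% in LPS libraries 3 and 4. In the untreated libraries it took 33.8% to 35.8%. The share of mitochondrial rRNA alone was 7.95% and 8.45% after LPS in mice 1 and 2, 2.69% and 3.72% in mice 3 and 4, and 4.84% to 5.6% in untreated cells. The second principal component of the 8 libraries (8.6% of the variance) also set mice 1 and 2 apart from 3 and 4 in both treatments, while the first (67.9%) separated LPS from untreated cells. Xist stood at 41.9 to 63.9 TPM in mice 3 and 4 and at 0.0262 TPM or less in mice 1 and 2, in which Y-linked genes summed to 73.3 to 93.3 TPM, so in C57 this division of the libraries goes with the sex of the mice. In B6 and PWD, too, mice 1 and 2 held Y-linked transcripts and mice 3 and 4 Xist. Structural RNA in LPS libraries 1 to 4 took 33.2%, 41.2%, 35.3% and 38.5% in B6. In PWD it took 39.1%, 37.2%, 36.3% and 38.9%. The part of sex in the split of the C57 libraries was not tested. Counts with TPM rescaled without structural RNA and with each pair of mice alone are given beside the main ones.

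**Figure D1:**
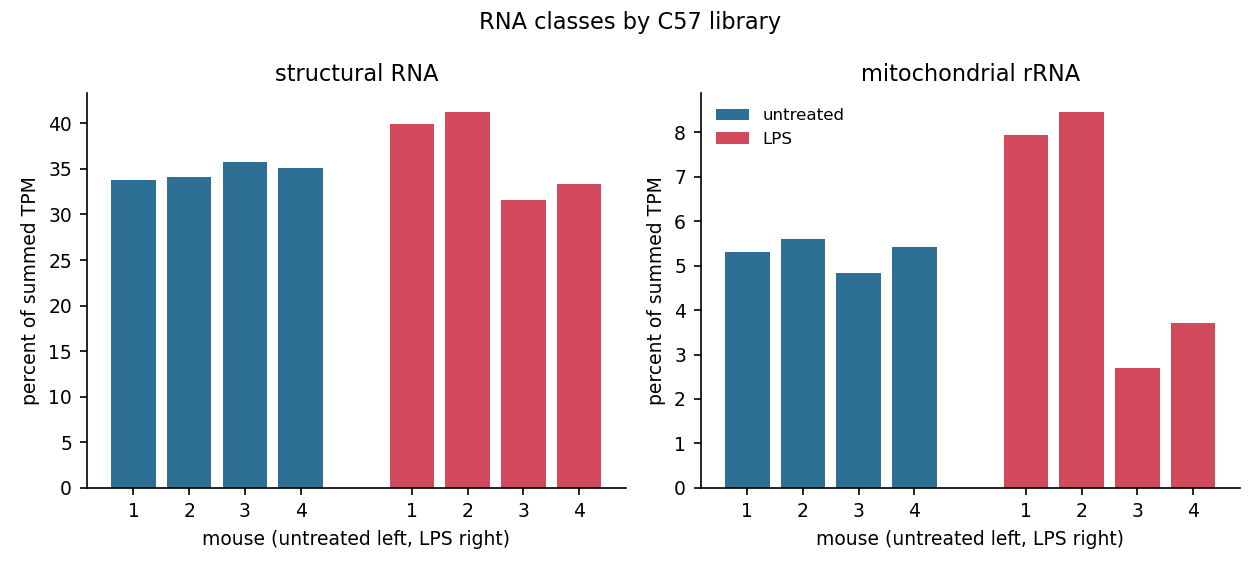
Percent of summed TPM taken by structural RNA (left) and by mitochondrial rRNA (right) in each of the 8 C57 libraries, untreated mice 1 to 4 in blue and LPS mice 1 to 4 in red. The LPS libraries of mice 1 and 2 stand at 39.9% and 41.2% structural RNA and those of mice 3 and 4 at 31.6% and 33.4%, with the 4 untreated libraries between 33.8% and 35.8%.

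LPS changed most of the genes tested in C57 cells, with some strong rises and a broad lowering of the rest. Of 13246 genes, 8279 were called (62.5%), 1371 higher (10.4%) and 6908 lower (52.2%), around a median change of -0.32. When the change was required to reach 1 on the log2 scale in addition to the call, 447 genes rose (3.37%) and 628 fell (4.74%). The 4 LPS and 4 untreated libraries did not overlap in 58.5% of the genes tested, so groups without overlap are common. The split of higher and lower calls depends on the scaling. Scaling by the median of ratios, under which a typical gene shows no change, moved the median by 0.30 to -0.02 and gave 3348 higher (25.3%) and 3403 lower calls (25.7%), and quantile normalization gave 2737 and 4152. For this reason each gene list below is given with its counts on the deposited scale and after median-of-ratios scaling, and small falls are read against the median gene. Counts of members that fell are likewise to be read against the 52.2% and 25.7% of all genes. Rescaled without structural RNA, 1679 genes were higher and 7123 lower. In mice 1 and 2 alone 1055 genes were higher and 7344 lower, and in mice 3 and 4 alone 1485 and 4368. In bulk RNA a lower level can come from fewer cells of a type or from less of the transcript per cell, and these cannot be told apart here.

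**Figure D2:**
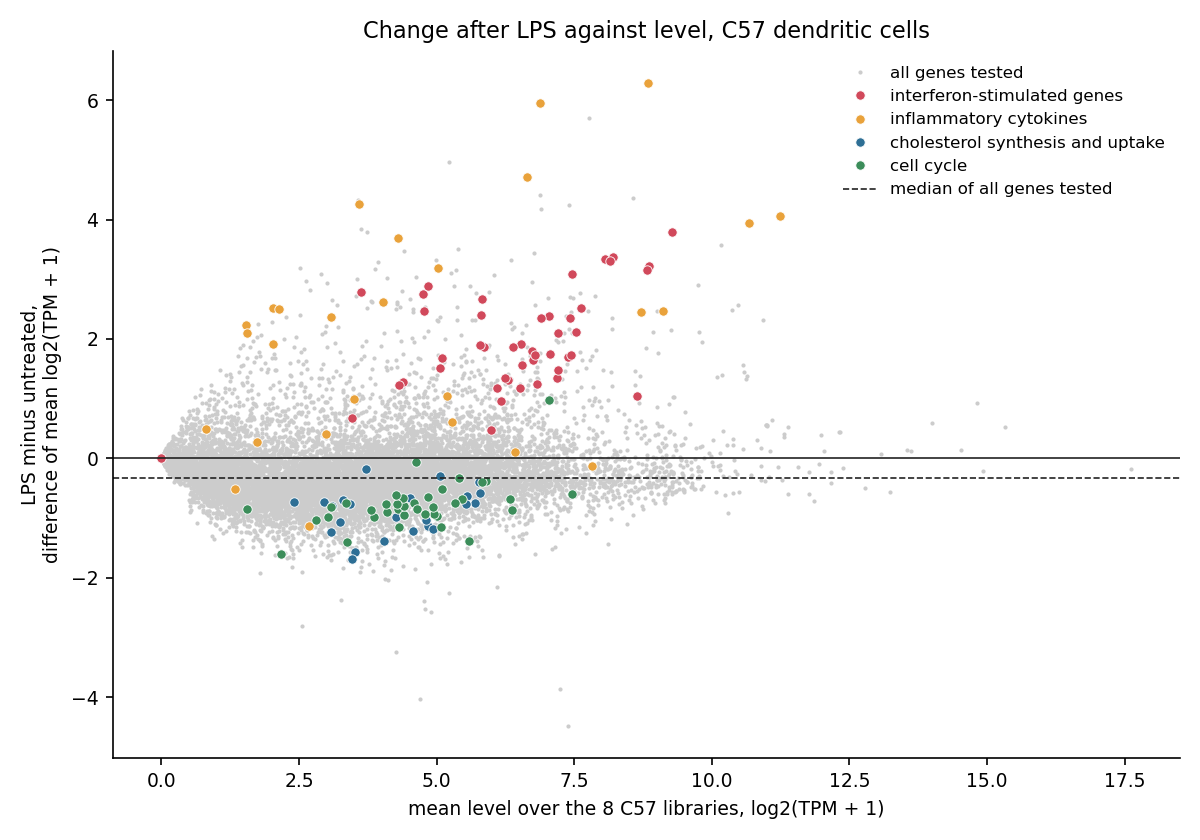
Change after LPS (difference of mean log2(TPM + 1), 4 LPS minus 4 untreated libraries) against the mean level of each of the 13246 genes tested, with 4 gene lists in colour and a dashed line at the median change of -0.32. Interferon-stimulated genes and most inflammatory cytokines lie above 0, and genes of cholesterol synthesis and of the cell cycle lie mostly below the median.

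Inflammatory cytokines showed the largest changes. Of 27 tested members of the list 22 rose and 2 fell (25 and 1 after median-of-ratios scaling), with a median of 2.38 against -0.32 over all genes, and 10.4% of all genes rose. Il6, which drives fever and the acute-phase response, stood at 8.77, 15.4, 10.4 and 8.89 TPM in the untreated libraries of mice 1 to 4 and at 783, 887, 1013 and 953 TPM after LPS. The gene lies at chr5:30013114-30019981 on the plus strand (mm10, GENCODE M21). The groups were far apart, and the change of 6.29 (SE 0.17, limma adjusted p = 2.6e-19) is the largest rise of all genes called in C57. Il12b (chr11:44400063-44414033, plus strand), the subunit that IL-12 and IL-23 share, went from 2.38, 2.13, 3.22 and 3.04 TPM to 205, 189, 233 and 291 TPM (5.96, SE 0.23). Its partner subunits Il12a of IL-12 and Il23a of IL-23 rose as well, but from 0.198 to 5.91 TPM and from 0.323 to 6.46 TPM on average, so the shared subunit was the more abundant by far in TPM.

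Interleukin 1 was the most abundant product of the list. Il1b, the secreted pyrogen that needs caspase 1 to mature, stood at 217, 323, 294 and 255 TPM without LPS and at 4060, 3992, 5000 and 5152 TPM with it (4.07, SE 0.13). Il1a rose by 3.93, to a mean of 3065 TPM (SD 466, n = 4), and the receptor antagonist Il1rn, which opposes both, rose by 1.40 from 637 to 1683 TPM. Tnf, the early mediator of shock, was present in untreated cells at 123 to 132 TPM and reached 635, 638, 758 and 808 TPM (2.45, SE 0.12, limma adjusted p = 3.1e-15). In each of Il1b, Il1a and Tnf the LPS libraries of mice 3 and 4 were above those of mice 1 and 2 on the deposited scale. The factors by which median-of-ratios scaling divides were also larger there, at 1.05 and 1.03 against 0.90 and 0.87. What part of this order comes from the scaling was not tested.

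Other members rose from low levels. The T cell co-stimulator Tnfsf15 (TL1A) rose by 4.71 to 191 TPM, the granulocyte growth factor Csf3 by 4.25 to 22 TPM, Il27 by 3.70, the vasoconstrictor endothelin gene Edn1 by 3.19, Il15 by 2.61 and the activin subunit Inhba by 2.47. Il10, the chief anti-inflammatory cytokine, was listed at 0 in 3 untreated libraries and at 0.0662 TPM in mouse 1, and stood at 4.04, 3.42, 4.57 and 3.27 TPM after LPS (2.24, or 5.10 with a pseudocount of 0.1 TPM in place of 1). Ifnb1, the gene of interferon beta, stood at 0.267, 1.89, 0.688 and 0.274 TPM and at 5.30, 5.54, 6.08 and 4.43 TPM (1.91, SE 0.22, limma adjusted p = 6.7e-08; 2.99 with the smaller pseudocount). The groups did not overlap for either gene. Tnfsf14 (LIGHT, a T cell co-stimulator) fell by 1.13, Tnfsf13b (BAFF) fell by 0.52 on the deposited scale, but was not called after median-of-ratios scaling or without LPS library 1 or untreated library 2 (-0.64 to -0.36), and Tgfb1 (-0.12), Csf1 (0.11) and Lif (0.27) were not called, though all 3 were called higher after median-of-ratios scaling.

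**Figure D3:**
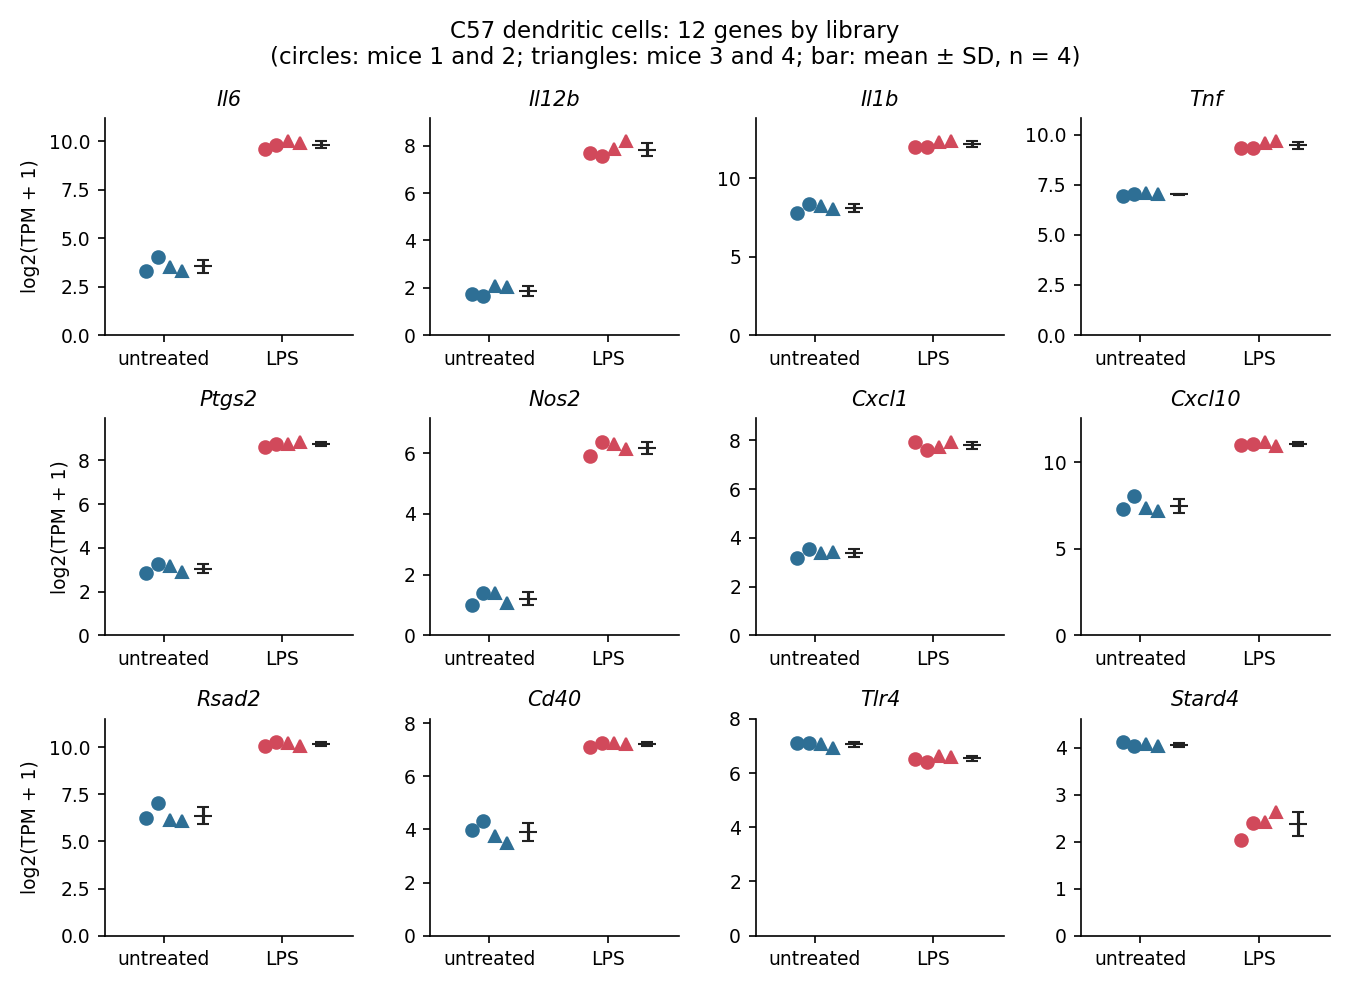
Level of 12 genes in log2(TPM + 1) in the 4 untreated (blue) and 4 LPS libraries (red) of C57 dendritic cells, each point a library (circles mice 1 and 2, triangles mice 3 and 4) and the bar beside them the mean and SD (n = 4). Tlr4 and Stard4 are lower after LPS and the other genes are higher, by 2.45 (Tnf) to 6.29 (Il6). The groups do not overlap in any panel, which also holds for 58.5% of all genes tested. The genes named as largest rises were chosen with that requirement.

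Chemokines for neutrophils, monocytes and T cells rose, with exceptions. Of 25 members 15 rose and 3 fell (19 and 2 after median-of-ratios scaling), around a median of 0.64. The neutrophil attractant Cxcl1 stood at 8.06, 10.8, 9.52 and 9.76 TPM without LPS and at 242, 196, 212 and 242 TPM with it (4.41, SE 0.12). Its neighbour Cxcl2 rose by 2.91 to 1523 TPM, Cxcl3 by 2.32 to 3231 TPM and Cxcl5 by 3.28 to 26.8 TPM. These are similar neighbouring genes, so reads may be shared between them. Ccl5 (RANTES), which draws T cells, went from 40.8, 44.8, 23.7 and 30.8 TPM to 646, 828, 749 and 652 TPM (4.35, SE 0.18), and Cxcl10, the interferon-induced ligand of Cxcr3, from 157, 265, 159 and 146 TPM to 2054, 2113, 2313 and 1932 TPM (3.57, SE 0.17). For all of these the lowest LPS library was above the highest untreated one. The macrophage inflammatory proteins Ccl3 (2.48) and Ccl4 (1.94) rose, as did Ccl22 (2.16) and Ccl17 (0.64), ligands of Ccr4 made by dendritic cells. The monocyte attractants Ccl2 (0.22) and Ccl7 (0.39), already at 1139 and 378 TPM in untreated cells, rose little, and the call of Ccl2 was lost without LPS library 1 or 4 or untreated library 3 or 4 (0.19 to 0.27). Ccl6, the most abundant chemokine of untreated cells at 4604 TPM, fell by 0.72.

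The promoters of several of these genes hold a short motif, GGGA and TTCC with any 2 bases between them, which is a form of the kappa B element that NF-kB binds, and 4 of them, from genes that rose, are printed to show where the match lies. The sequences are from RefSeq promoter windows on GRCm38.p6, read 5′ to 3′ on the strand of the gene, in lower case with matches on either strand in capitals. They span chr5:30013004-30013103 (plus strand) for Il6, chr5:90891115-90891214 (plus) for Cxcl1, chr5:90903759-90903858 (plus) for Cxcl2 and chr12:55492658-55492757 (minus) for Nfkbia, whose product holds NF-kB in the cytoplasm.
Il6: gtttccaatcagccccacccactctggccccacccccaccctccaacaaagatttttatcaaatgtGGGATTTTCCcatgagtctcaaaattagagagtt
Cxcl1: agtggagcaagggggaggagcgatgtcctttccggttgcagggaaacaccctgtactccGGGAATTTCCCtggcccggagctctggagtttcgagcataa
Cxcl2: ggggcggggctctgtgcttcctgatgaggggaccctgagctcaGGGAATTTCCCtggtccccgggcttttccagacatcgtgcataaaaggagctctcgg
Nfkbia: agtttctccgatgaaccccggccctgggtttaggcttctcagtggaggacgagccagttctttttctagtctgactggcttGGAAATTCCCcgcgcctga
The match of Il6 starts 44 bases before the transcription start and that of Nfkbia 29 bases before it. Cxcl1 and Cxcl2 each hold a pair of overlapping matches on opposite strands, which start 71 and 97 bases before the start. Within the 250 bases before the start, the motif was found on either strand in 1.33% of the 11992 windows of genes tested (9419 genes had a window). It was found in 4 of 17 windows of chemokines (23.5%), in 4 of 19 of NF-kB genes (21.1%) and in 3 of 23 of inflammatory cytokines (13.0%), against 4.23% of the windows of genes that rose by 1 or more and 1.22% of those that fell by 1 or more. These are descriptions of letters, not of binding.

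Among the genes that sense and relay LPS, the co-receptor rose and the receptor did not. Of 25 members of the receptor complex and its adaptors 7 rose and 10 fell, but 13 and 2 after median-of-ratios scaling, so most of the falls were no larger than that of the typical gene. Cd14 stood at 210, 267, 227 and 214 TPM in untreated cells and at 524, 589, 652 and 637 TPM after LPS (1.39, SE 0.10, limma adjusted p = 5.7e-12). Tlr4 (chr4:66827584-66930284, plus strand) stood at 139, 138, 134 and 122 TPM and at 91.7, 84.7, 98.3 and 97.0 TPM, a fall of 0.51 (SE 0.10) on the deposited scale, without overlap, which was -0.14 and not called after median-of-ratios scaling (adjusted p = 0.14). Ly96 was not called (0.09; 0.45 and called after that scaling). The kinases Tbk1 (0.65) and Ikbke (0.60), which activate Irf3, and Irak2 (0.65) and Myd88 (0.53) rose, while Tab1 (-0.79) and the kinase Irak1 (-0.74) fell under both scalings. Among the other Toll-like receptors Tlr3, the sensor of double-stranded RNA, rose by 1.71 from 5.05 to 18.7 TPM, Tlr2 by 0.51 and Tlr7 by 0.49.

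NF-kB genes and the inhibitors of the pathway rose together. Of 17 NF-kB subunits and inhibitors 14 rose and none fell (17 and none after median-of-ratios scaling), around a median of 0.75; 7 of them rose by 1 or more. The coactivator Nfkbiz, which Il6 needs, rose by 2.32, the deubiquitinase Tnfaip3 (A20) by 1.63, the inhibitor Nfkbia by 1.22 from 233 to 546 TPM, and the subunits Rel and Nfkb1 by 1.19 each. Of 25 inhibitors that act on Toll-like receptors or below them 16 rose and 6 fell (19 and 3). Risen members were the ubiquitin ligase Peli1 (1.87), the RNase Zc3h12a, which degrades Il6 mRNA (1.73), the Jak inhibitor Socs3 (1.57) and the decoy kinase Irak3 (1.14). Sigirr (-0.96), Inpp5d (-0.86, a lipid phosphatase) and the decoy receptor Il1r2 (-0.85) fell.

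Interferon-stimulated genes rose almost without exception. Of 46 tested members 45 rose, under both scalings, in each pair of mice alone, and whichever C57 library was left out. The remaining member, Ifi44l, was listed at 0 in all 8 libraries. The median change was 1.83, and 42 members rose by 1 or more, against 3.37% of all genes. Rsad2 (viperin, an antiviral enzyme) stood at 74.0, 133, 69.1 and 66.0 TPM without LPS and at 1062, 1243, 1199 and 1084 TPM with it (3.79, SE 0.18). Ifit1, which binds foreign RNA, stood at 84.3, 143, 75.8 and 68.4 TPM and at 770, 842, 931 and 802 TPM (3.21, SE 0.16). The ubiquitin-like Isg15 rose by 3.15 to 814 TPM, Oasl1 by 3.37, Ifit2 by 3.34 and Cmpk2 by 3.31. The RNA sensors Ifih1 (2.36) and Ddx58 (1.65) and the GTPases Mx1 (1.70) and Mx2 (1.68) rose less. Members of the Ifit, Oas and Ifi families are alike in sequence, so single values within them are uncertain.

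Untreated cells of mouse 2 stood apart in this list. Of the 45 members above 0 in untreated cells 42 had their highest untreated value in mouse 2, and the sum over the list was 2737 TPM there against 1938 to 2131 TPM in mice 1, 3 and 4. Ifnb1 was also highest in that library, at 1.89 TPM. After LPS the sum was 9499 to 11007 TPM, with mouse 2 at 10347 TPM inside that range. Of the genes of interferon signalling, Irf7 (2.38), Irf1 (1.27) and Stat2 (1.14) rose, and the list of interferon receptors, Jak-Stat and Irf genes rose in 11 of 23 members and fell in 3 (19 and 1 after median-of-ratios scaling). Ifngr1, a receptor chain for interferon gamma, fell by 0.85.

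The interferon response element, 2 copies of GAAA with any 2 bases between them, which Irf proteins and Irf9 in complex with Stat proteins bind, is shown in 4 promoters of this arm. Conventions are as above, and a pair of TTTC copies is the same element read on the other strand. The windows are chr5:92349020-92349129 (minus strand) for Cxcl10, which holds this element and a kappa B match, chr12:26456523-26456622 (minus) for Rsad2, chr19:34640739-34640838 (plus) for Ifit1 and chr11:58199446-58199545 (plus) for Igtp.
Cxcl10: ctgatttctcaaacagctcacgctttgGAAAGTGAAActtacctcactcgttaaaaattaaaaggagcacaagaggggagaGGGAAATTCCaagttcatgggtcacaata
Rsad2: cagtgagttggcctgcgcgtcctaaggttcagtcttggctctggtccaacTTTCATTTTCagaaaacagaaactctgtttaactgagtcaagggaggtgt
Ifit1: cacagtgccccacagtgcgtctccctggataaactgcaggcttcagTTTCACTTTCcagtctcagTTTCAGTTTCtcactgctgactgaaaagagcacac
Igtp: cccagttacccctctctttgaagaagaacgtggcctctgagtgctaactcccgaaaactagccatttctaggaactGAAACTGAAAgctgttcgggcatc
Ifit1 holds 2 matches, which start 104 and 85 bases before the transcription start; the match of Igtp starts 34 bases before it and that of Rsad2 120 bases before it. The element was found in 2.98% of the 11992 windows of genes tested, in 15 of 44 windows of interferon-stimulated genes (34.1%) and in 10 of 11 windows of guanylate-binding proteins and immunity-related GTPases (90.9%). Of the windows of genes that rose by 1 or more 16.4% held it, and of those that fell by 1 or more 1.82%.

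The GTPases that attack the vacuoles of intracellular microbes, of the Gbp and Irg families, rose in 14 of 16 members and fell in none (15 and none after median-of-ratios scaling), around a median of 2.11. Gbp5, which also promotes inflammasome assembly, stood at 15.7, 25.1, 14.5 and 15.5 TPM and at 180, 200, 214 and 197 TPM after LPS (3.44, SE 0.16). Mouse 2 was again the highest of the untreated libraries, and the groups did not overlap. Ifi205, an interferon-inducible gene outside the lists, rose by 4.18 from a mean of 11.7 to 225 TPM. Iigp1 rose by 3.17, Gbp2 by 2.77, Irgm1 by 1.73 and Igtp by 1.89. Tgtp1 and Tgtp2 (2.32 each) are near copies, and the members of the Gbp family resemble each other, so their split is uncertain.

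Genes of MHC class I presentation rose, and those of class II did not. Of 23 class I genes 18 rose and 1 fell (21 and none), around a median of 0.65, among them the transactivator Nlrc5 (1.63), the peptide transporter Tap1 (1.44, from 60.1 to 165 TPM), the immunoproteasome subunits Psmb10 (1.09) and Psmb9 (0.78) and the chaperone Tapbp (0.98). The abundant heavy chains moved little, with H2-K1 at 0.26 (not called without untreated library 4, 0.22 to 0.32 over single libraries left out) and H2-D1, called only after median-of-ratios scaling, at 0.15. Of 12 class II genes none rose and 6 fell (1 and 1 after median-of-ratios scaling), around a median of -0.23 against -0.32 for all genes, so the share that fell was near the 52.2% of all genes and, after scaling, below their 25.7%. H2-Ab1 stood at 487, 592, 430 and 435 TPM and at 453, 555, 480 and 484 TPM after LPS, with overlapping groups (0.03, adjusted p = 0.87; 0.41, called, after median-of-ratios scaling). H2-DMa, a chain of the peptide editor of class II, fell by 0.96 from 191 to 97.9 TPM and by 0.59 after that scaling.

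Genes of dendritic cell maturation rose. Of 23 members of the co-stimulation list 17 rose and none fell (22 and none), around a median of 0.87. Cd40, the receptor for T cell help, stood at 14.6, 18.8, 12.6 and 10.3 TPM and at 135, 152, 153 and 148 TPM after LPS (3.32, SE 0.17). Il15ra (2.68), which presents IL-15, Cd69 (2.23), the signalling adaptor Traf1 (1.72) and the actin bundler of mature dendritic cells Fscn1 (1.61) rose too, as did the T cell inhibitor Cd274 (PD-L1, 1.19). The co-stimulatory ligands moved less, Cd86 by 0.55, while Cd80 stood at 0.18 and was called only after median-of-ratios scaling. Ccr7, the receptor that guides dendritic cells to lymph nodes, stood at 45.1, 54.2, 35.7 and 35.4 TPM and at 144, 200, 144 and 137 TPM after LPS (1.86, SE 0.15), with mouse 2 the highest in both groups. Of 9 chemokine receptors Ccr7 and Ccrl2 (2.57) rose and 5 fell (3 and 4 after median-of-ratios scaling). That share of falls was near the 52.2% of all genes and, after scaling, above their 25.7%. Ccr2, which brings monocytes to inflamed tissue, fell by 1.51 from 201 to 69.8 TPM, Cxcr2 by 1.11 and Cxcr4 by 0.98.

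Transcription factors moved in both directions, 12 of 33 up and 14 down (18 and 7 after median-of-ratios scaling). The share that fell was below the 52.2% of all genes and, after scaling, below their 25.7%, while 10.4% of all genes rose. Batf2 (2.02), Maf (1.86), the orphan nuclear receptor Nr4a3 (1.41) and Junb (0.93) rose. Klf4 (-1.68), Id3 (-1.66) and Cebpa (-1.38), which serve monocyte and macrophage differentiation or progenitors, fell. Myc fell by 0.75 (0.39 after median-of-ratios scaling), from 35.9, 32.4, 37.3 and 34.9 TPM to 19.4, 15.3, 27.9 and 20.9 TPM, without overlap of the groups. Of the Bcl2 family and survival list 7 of 18 rose and 7 fell (11 and 3), with the caspase 8 inhibitor Cflar at 1.33 and the pro-apoptotic Bmf at -1.28. The share of this list that fell was also below that of all genes under both scalings.

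Within the prostaglandin pathway the inducible cyclooxygenase rose and the constitutive one fell. Ptgs2, the inducible enzyme, stood at 6.21, 8.72, 7.93 and 6.34 TPM and at 394, 425, 432 and 463 TPM after LPS (5.70, SE 0.16), while the constitutive Ptgs1 went from 72.9, 66.0, 69.5 and 78.0 TPM to 21.7, 18.8, 23.8 and 25 TPM (-1.64, SE 0.15). Both pairs of groups were well apart. The prostaglandin E synthase Ptges rose by 3.11, and the leukotriene genes Alox5 (-0.95), Alox5ap (-0.78) and Lta4h (-1.01) fell. Nos2 (chr11:78920787-78960254, plus strand), the inducible nitric oxide synthase, stood at 0.979, 1.64, 1.64 and 1.09 TPM and at 58.7, 81.6, 77.4 and 68.8 TPM after LPS (4.96, SE 0.12). Its arginine transporter Slc7a2 (1.85) and Gch1 (0.87), which starts synthesis of its cofactor, rose too. Acod1, which makes itaconate, rose by 2.57 to 2424 TPM and Ch25h, which makes 25-hydroxycholesterol, by 2.48. In all 12 of 23 members of this list rose and 8 fell (14 and 5).

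Soluble defence and cell death genes were mixed. Of the acute-phase, complement and antimicrobial list 7 of 23 rose and 9 fell (9 and 5). Over all genes 10.4% rose and 52.2% fell (25.3% and 25.7% after median-of-ratios scaling), so falls were no more frequent here. Hamp, the gene of the iron hormone hepcidin, stood at 0, 0.816, 1.07 and 0.351 TPM and at 13.3, 22.6, 35.9 and 16.3 TPM after LPS (3.84, SE 0.22), Saa3 rose by 2.96, complement factor B (Cfb) by 2.70 and Ptx3 by 1.77. The complement components C1qa (-0.82), C1qb (-0.75) and C1qc (-0.74), made by macrophages, fell. Of 25 inflammasome and cell death genes 16 rose and 3 fell (22 and 3), with the sensor Nlrp3 at 1.76, the necroptosis effector Mlkl at 1.22 and the intracellular LPS sensor Casp4 at 1.16. The adaptor Pycard (ASC), which links Nlrp3 to caspase 1, fell by 1.04 from 194 to 94.4 TPM, and Ripk3, the kinase that activates Mlkl, fell by 1.0. Among proteases and coagulation genes 10 of 17 rose and 5 fell (10 and 3), with tissue factor (F3) at 2.13, Serpinb2 at 2.34 and the collagenase Mmp13 at 2.17, and of 23 phagocytic and lectin receptors 5 rose and 10 fell (12 and 7), with Clec4e (Mincle) at 2.12, Marco at 1.72 and Trem2 at -0.92. Falls of these receptors were less frequent than over all genes on the deposited scale, though not after scaling.

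Genes of lipid synthesis fell almost throughout. Of 24 genes of cholesterol synthesis and uptake none rose and 23 fell (21 after median-of-ratios scaling), around a median of -0.78 against -0.32 for all genes, and 9 fell by 1 or more. Stard4, which carries cholesterol between membranes, stood at 16.4, 15.3, 15.9 and 15.4 TPM and at 3.08, 4.31, 4.36 and 5.22 TPM after LPS (-1.69, SE 0.12, limma adjusted p = 9.0e-12). Dhcr7, the last enzyme of the pathway, fell by 1.57, Sc5d by 1.38 and Sqle by 1.22. Of 13 fatty acid genes none rose and 11 fell (1 and 9). Scd2, which makes monounsaturated fatty acids, went from 62.9, 59.6, 63.6 and 56.7 TPM to 11.1, 10.5, 15.4 and 11.1 TPM (-2.26, SE 0.11), the desaturase Fads1 fell by 1.54 and the synthase Fasn by 1.37. The cholesterol exporter Abca1 rose by 0.49 and Abcg1 fell by 0.73.

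Genes of division fell as well. Of 38 cell cycle genes 36 fell and 1 rose (32 and 2 after median-of-ratios scaling), around a median of -0.82. The replication helicase subunit Mcm7 stood at 23.5, 26.4, 27.6 and 28.1 TPM and at 11.3, 8.85, 13.7 and 11.8 TPM after LPS (-1.15, SE 0.12), and the mitotic activator Cdc20 at 28.2, 25.2, 25.6 and 29.2 TPM and at 12.3, 10.5, 16.0 and 15.7 TPM (-0.95, SE 0.12). The groups did not overlap for either gene. E2f2 (-1.60), Tk1 (-1.41) and Cenpa (-1.38) fell most, and Rrm2 fell by 1.14. The exception was Ccnd2, a cyclin of early G1, which rose by 0.98 from 88.0 to 174 TPM. Of 20 ribosome biogenesis genes 18 fell and none rose (10 and 2), around a median of -0.57, with Dkc1 at -1.46 and Wdr12 at -1.24. Cytosolic ribosomal protein genes fell in 28 of 30 members on the deposited scale, but in 10 after median-of-ratios scaling.

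Genes of central carbon metabolism fell in part beyond the median gene. All 20 genes of the tricarboxylic acid cycle list fell, 10 of them after median-of-ratios scaling, around a median of -0.58. Of this list Idh1 (-1.0), the cytosolic isocitrate dehydrogenase and not itself an enzyme of the cycle, and Idh3a (-0.86) fell most. Cs (citrate synthase) fell least (-0.24, and 0.13 and called higher after median-of-ratios scaling). The fall of Cs was lost without LPS library 1 or 2 or untreated library 1, 3 or 4 (-0.30 to -0.16). Nuclear genes of the respiratory chain fell in 18 of 21 members, but in 3 after that scaling, around a median of -0.39. Of 23 glycolysis and hypoxia genes 3 rose and 13 fell (8 and 9). Their share of falls was near the 52.2% of all genes and, after scaling, above their 25.7%. Hif1a (0.33), Hk2 (0.52) and Pfkfb3 (0.63), which speed glycolysis, were the members that rose, while Gpi1 (-0.83) and Pkm (-0.59) fell. Prdx5 (1.03), the cystine transporter Slc7a11 (0.98) and the metallothionein Mt2 (0.92) rose among 20 antioxidant genes, of which 7 rose and 8 fell (11 and 3), around a median of 0.05. Of 13 mitochondrial messenger RNAs 1 rose and 2 fell (6 and none), around a median of 0.15.

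**Figure D4:**
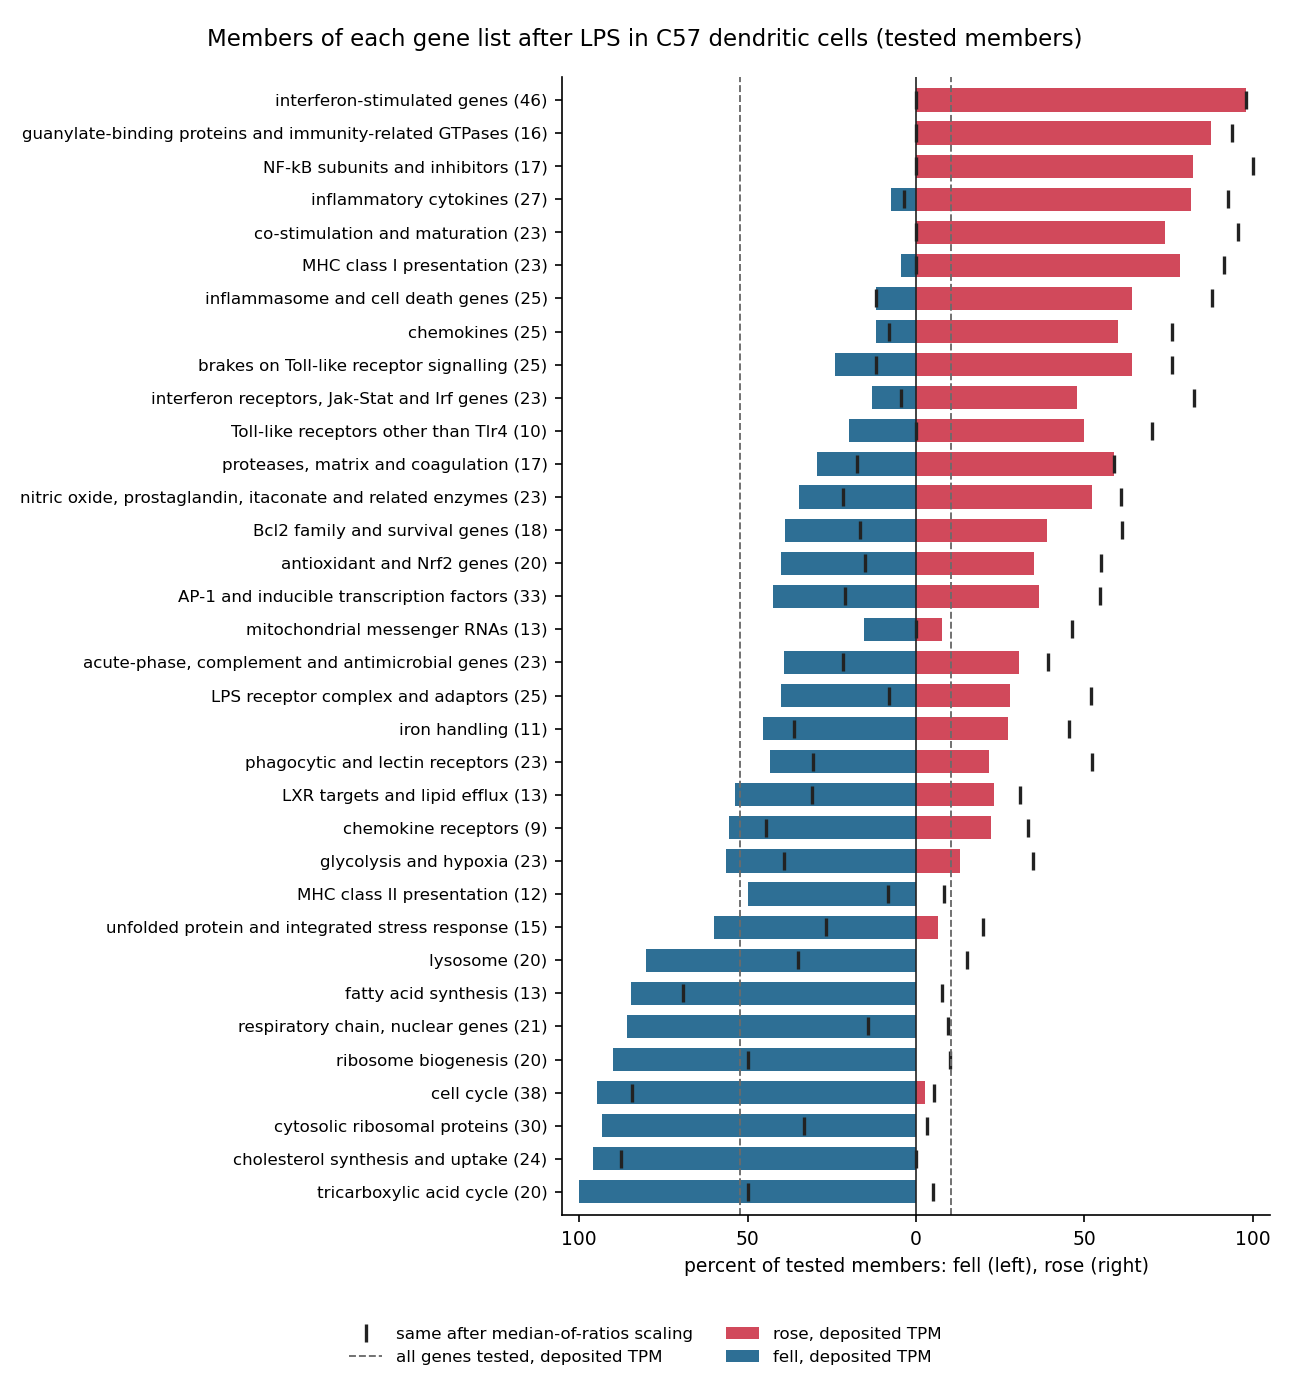
Percent of the tested members of each of 34 gene lists (number tested in brackets) that rose (red, right) or fell (blue, left) after LPS in C57 cells on the deposited TPM scale; black marks give the same after median-of-ratios scaling and dashed lines the shares over all genes, 10.4% and 52.2%. Interferon-stimulated genes (45 of 46 rose) and cholesterol synthesis (23 of 24 fell, 21 after scaling) have similar shares under both scalings, while fewer ribosomal protein genes (10 against 28 of 30) and respiratory chain genes (3 against 18 of 21) fell after scaling.

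The largest falls by name were outside the lists in most cases. Cnr2, the cannabinoid receptor of immune cells, stood at 16.3, 13.8, 14.5 and 16.0 TPM and at 2.00, 1.65, 2.16 and 2.74 TPM after LPS (-2.37, SE 0.14, limma adjusted p = 1.8e-13). It was followed by Scd2 (-2.26), the histone gene H3c8 (-2.15, a member of a family of near copies), the myeloid receptor gene Cd300lb (-2.07), Pald1 (-2.03), Angptl2 (-2.01), Amz1 (-1.89), the small nucleolar RNA Snora21 (-1.87), Pdxk (-1.84, which activates vitamin B6), Phospho1 (-1.81), the glycosyltransferase gene B3gnt7 (-1.80), Sh2d1b1 (-1.79), the ceramide kinase Cerk (-1.77), Gpr160 (-1.77) and the receptor adaptor Arrb1 (-1.74). The rule that chose these 15 required groups without overlap, which 58.5% of all genes tested showed. The call of Snora21 was lost with mice 3 and 4 alone (-1.85, adjusted p = 0.13). After median-of-ratios scaling their falls were smaller by about the shift of the median, as with Cnr2 (-2.04) and Arrb1 (-1.37).

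Markers were read to see which cells the cultures held. Conventional dendritic cell genes were present, with Itgax (CD11c) at 308 TPM and Irf4 at 49.5 TPM in untreated cells, but Flt3 and Xcr1 were too low to test, Clec9a stood at 1.22 TPM and Zbtb46, which marks conventional dendritic cells, at 8.66 TPM. Macrophage genes were high (Lyz2 at 11435 TPM, Csf1r at 284 TPM, Adgre1 at 104 TPM). Of 13 macrophage and monocyte markers 2 rose and 7 fell after LPS (3 and 6 after median-of-ratios scaling), with Csf1r at -0.64 and Ly6c2 at 0.64, and of 11 dendritic cell markers none rose and 5 fell (4 and 2). On the deposited scale these shares are near the 10.4% of all genes that rose and the 52.2% that fell. After scaling 25.3% of all genes rose and 25.7% fell. The macrophage and monocyte markers fell more often than that, while the dendritic cell markers fell less often and rose more often. T and NK cell and erythroid markers were near 0 (Klrb1c at 0.067 TPM, Hbb-bs at 0.245 TPM). The 5 stromal and endothelial markers summed to 10.7 to 11.2 TPM in untreated cells and 6.29 to 9.67 TPM after LPS, with Col1a1 at 0.939 TPM. Of 3 tested 1 rose and 1 fell, under both scalings. The B cell gene Cd79a (1.67 TPM) was low, while the 9 B cell and plasmacytoid dendritic cell markers summed to 26.0 to 41.7 TPM in untreated cells.

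Granulocyte transcripts varied between mice. Of 15 neutrophil markers 1 rose and 6 fell (1 and 3 after median-of-ratios scaling). The shares that fell were below those of all genes, 52.2% on the deposited scale and 25.7% after scaling. The summed level of these markers was 3853, 2797, 3826 and 4509 TPM in untreated mice 1 to 4 and 2596, 1905, 3106 and 3546 TPM after LPS, with mouse 2 the lowest in both groups. The granule gene Ltf, at 56.2, 30.3, 58.0 and 83.6 TPM and at 20.5, 9.90, 46.4 and 43.3 TPM, was called on the deposited scale (-1.05, SE 0.42, limma adjusted p = 0.037), but was lost after median-of-ratios scaling (adjusted p = 0.13) and when any of 5 libraries was left out (untreated 1, 3 and 4 and LPS 1 and 2), with changes of -1.33 to -0.62 over single libraries left out. Retnlg fell by 1.06 and Cxcr2 by 1.11, and Lcn2, which macrophages also induce, rose by 1.48. Of 9 tested markers of mast cells, basophils and eosinophils 3 fell (1 after median-of-ratios scaling) and none rose, again smaller shares of falls than over all genes. The part of such cells in the changes above was not tested.

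The response of C57 cells was then set against that of B6 cells, as a difference of responses in the same fit. Over the 13246 genes the 2 responses correlated with r = 0.836 across genes, which are not independent replicates. The difference was called for 1896 genes, in 1447 with the higher response in C57 (10.9%) and in 449 with the lower (3.39%), or 1447 and 1891 after median-of-ratios scaling. Ribosome biogenesis genes stood out by their count: all 20 had the higher response in C57 under both scalings, since their median change was -0.57 in C57 and -1.57 in B6. Wdr75, another gene of ribosome assembly, stood at -0.51 in C57 and at -2.02 in B6 (difference 1.51, SE 0.17, limma adjusted p = 1.9e-06), and Myc, which drives such genes, at -0.75 and -2.43 (1.68). After LPS Myc was at 20.9 TPM in C57 and 5.26 TPM in B6, from 35.1 and 32.7 TPM. Of 38 cell cycle genes 17 had the higher and 2 the lower response in C57 (18 and 2), with list medians of -0.82 and -1.45. Dusp6, a phosphatase induced by ERK signalling, was not called in C57 (-0.18) and stood at -1.96 in B6, and the adhesion scaffold Nedd9 at -0.06 (0.31 and called after median-of-ratios scaling) and -1.53. Pald1 and B3gnt7, among the largest falls of C57, fell further in B6, by 3.65 and 3.35.

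Several inflammatory genes rose less in C57 than in B6. Nos2 differed by -1.82 (SE 0.17, limma adjusted p = 2.1e-07), at 71.6 TPM after LPS in C57 against 171 TPM in B6, and the histidine decarboxylase Hdc, which makes histamine, by -1.82. Il6 differed by -1.33, from untreated means of 10.9 TPM in C57 and 3.75 TPM in B6 to 909 and 943 TPM. On the deposited scale the levels after LPS were thus near equal and the untreated levels apart. This depends on the scaling: median-of-ratios factors were 0.71 to 0.75 in B6 LPS libraries and 0.87 to 1.05 in C57 LPS libraries. The difference of responses was -1.52 after that scaling. With mice 1 and 2 of each strain alone the difference was not called (-1.46, limma adjusted p = 0.055). Il10 differed by -1.27 (3.82 TPM in C57 and 11.8 TPM in B6 after LPS), a difference that was not called with a pseudocount of 0.1 TPM (-0.98, adjusted p = 0.10). For Il12b the difference of -1.0 (adjusted p = 0.043) was lost when most single libraries were left out (adjusted p up to 0.094; LPS and untreated libraries 1 and 3, LPS 2 and untreated 4 of C57, and 5 libraries of B6) and after quantile normalization. Complement factor B (Cfb, -1.59), Serpinb9b (-1.69) and Rgs1 (-1.62) also had the lower response in C57, and Tnfrsf13b (TACI) moved in opposite directions, -0.89 in C57 and 0.86 in B6 (difference -1.76, SE 0.17). Of 23 co-stimulation genes none had the higher and 7 the lower response (none and 15 after median-of-ratios scaling), with list medians of 0.87 in C57 and 1.70 in B6. With mice 1 and 2 of each strain alone 725 differences were called and with mice 3 and 4 alone 1719.

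Against PWD, with which r across genes was 0.768, 1510 differences were called, in 793 with the higher response in C57 (5.99%) and in 717 with the lower (5.41%), or 1420 and 1415 after median-of-ratios scaling. This comparison and the one with B6 share the 8 C57 libraries. Interferon-stimulated genes had the lower response in C57 in 31 of 46 members and the higher in none (33 and 2), with list medians of 1.83 in C57 and 2.92 in PWD. Usp18, which restrains interferon signalling, stood at 3.51 TPM in untreated PWD cells and 69.1 TPM in untreated C57 cells, and at 76.1 and 301 TPM after LPS (difference -2.0, SE 0.22, limma adjusted p = 4.3e-07). Rtp4 (-2.58) and Oas3 (-2.03) showed the same order of levels. Il12b differed by -2.49, with 230 TPM after LPS in C57 and 1107 TPM in PWD, Ccl5 by -2.53, with 719 and 880 TPM, and Mmp13 by -2.18, with 475 and 195 TPM.

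Among the genes picked by rule, higher responses in C57 than in PWD were led by genes that stayed near 0 in PWD. The rule required a mean of 10 TPM or more in a C57 group, so genes near 0 in C57 could not be picked in either direction. Hamp (difference 3.52, SE 0.31, limma adjusted p = 1.2e-08) reached 22 TPM in C57 and 0.257 TPM in PWD, Iigp1 (2.64) 25.4 and 0.466 TPM, Apol9b (2.95) 10.0 and 0.0136 TPM, Ifi206 (2.58) 69.0 and 0.307 TPM and Apol7c (2.54) 90.7 and 0.248 TPM. Ifi206, Iigp1 and the Apol genes belong to families of similar genes, the files were made with the reference build mm10 for all strains, and what part the sequence of PWD has in its low values was not tested. The cyclin Ccnd1 fell by 0.51 in C57 (-0.14 and not called after median-of-ratios scaling) and by 3.08 in PWD (difference 2.57, SE 0.17). Ifnb1 differed by 1.28 (adjusted p = 0.0061), and with a pseudocount of 0.1 TPM the difference was not called. Nos2 differed by 1.21, but by -0.18 and uncalled with that pseudocount, so its direction depends on how low values are treated. Of 24 genes of cholesterol synthesis 13 had the higher response in C57, that is the smaller fall, and 1 the lower (16 and 1), with list medians of -0.78 and -1.54. With mice 1 and 2 of each strain alone 291 differences were higher and 2087 lower, and with mice 3 and 4 alone 1982 and 270, so which direction prevails depends on the pair of mice. The RNA classes also differed between these pairs. Structural RNA took 41.9% and 40.3% of TPM in untreated PWD libraries 1 and 2, but 29.3% and 28.8% in 3 and 4. In C57 it was the LPS libraries that parted. What part this has in the change of direction was not tested.

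**Figure D5:**
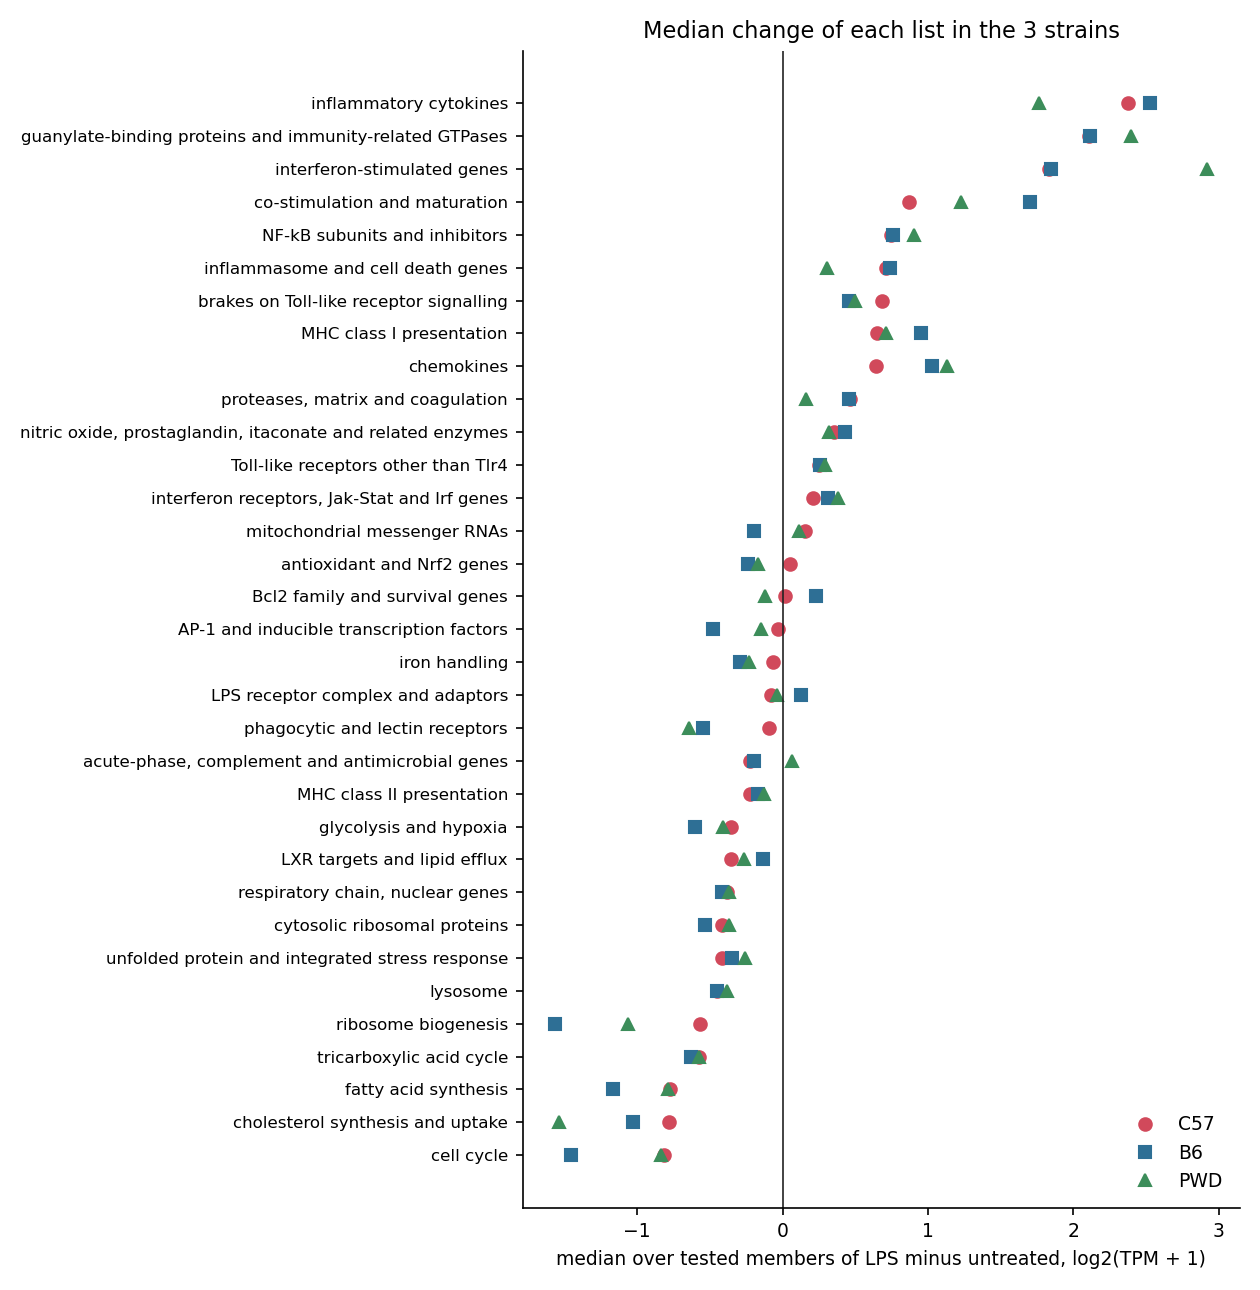
Median over the tested members of each gene list with 10 or more of them of the change after LPS (difference of mean log2(TPM + 1)), in C57 (red circles), B6 (blue squares) and PWD (green triangles). C57 stands at -0.57 for ribosome biogenesis against -1.57 in B6, and at 1.83 for interferon-stimulated genes against 1.85 in B6 and 2.92 in PWD.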

How the data were processed

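Bulk RNA-seq was made from total RNA of 24 cultures, with a stranded kit per the labels' protocols. The authors deposited 1 table of TPM values for 24 libraries; STAR, edgeR and the build mm10 stand in the submitters' processing notes without versions or roles, and the sources used here do not give how TPM was computed. The deposited TPM sum to 1000000 in each library and read depth is unknown, so no count test was possible. The table holds 55401 rows and 55291 symbols, and 110 repeated lines were summed.

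The 13246 genes that reached 1 TPM in 4 or more libraries were tested as log2(TPM + 1) with limma 3.58.1 in R 4.3.3 (6 groups, 24 libraries, 18 residual degrees of freedom, trended and robust empirical Bayes, Benjamini-Hochberg adjustment). A pseudocount of 1 TPM understates changes of low genes. Differences between strains were contrasts in the same fit. Labels state 4 biological replicates from individual mice in each group. On simulated data with 200 of 13246 genes changed in C57 LPS against untreated, 53.5% were recovered at a log2 change of 0.5, 97% at 1 and 99.5% at 2. The simulated noise was independent between genes, without shifts shared by a whole library, and far fewer genes changed than the 8279 called. These rates therefore check the procedure and do not give the recovery in the real comparison.

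Named genes were the 15 largest rises and 15 largest falls by rule (called, same direction after median-of-ratios scaling, 10 TPM or more in the higher group, no overlap of groups, no unnamed models or pseudogenes), the 6 largest differences of response in each direction against B6 and PWD, 9 fixed genes and members of 42 gene lists (791 genes, 758 tested). The comparison, members and lists were chosen with earlier results of these data known. Promoter windows (250 bases before the start) were from RefSeq on GRCm38.p6 and gene positions from GENCODE M21. Alternatives covered 3 scalings, the pseudocount, 2 filters, the variance model, the samples fitted, a minimum change, a replicate block, pairs of mice and single libraries left out.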

Additional observations from a re-analysis of the deposited data

Results flagged for a closer look

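In 6 of 74 groups of 4 libraries examined, 1 library lay apart from the other three by Dixon's criterion; chance alone gives about 1 in 20 groups. In untreated mouse 2 Cxcl10 stood at 265 TPM, Rsad2 at 133 TPM and Gbp5 at 25.1 TPM, each above the other untreated libraries. Il10 stood at 0.0662 TPM in untreated mouse 1 and was listed at 0 in the others, a tie in which any value above 0 lies apart, so that it cannot be read against the chance rate. After LPS, Ccr7 was at 199.8 TPM in mouse 2 and Scd2 at 15.4 TPM in mouse 3, both the highest of their group.

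The change after LPS differed between C57 and B6 by limma's contrast of responses for the genes named by rule. It was higher in C57 for Dusp6 (1.78), Myc (1.68), Pald1 (1.62), B3gnt7 (1.55), Wdr75 (1.51) and Nedd9 (1.47). It was lower for Nos2 (-1.82), Hdc (-1.82), Tnfrsf13b (-1.76), Serpinb9b (-1.69), Rgs1 (-1.62), Cfb (-1.59), Il6 (-1.33), Il10 (-1.27) and Il12b (-1.0). Of these, Il10 was not called with a pseudocount of 0.1 TPM (adjusted p = 0.10), Il6 was not called in mice 1 and 2 alone (adjusted p = 0.055), and the call of Il12b was lost when most single libraries were left out (adjusted p up to 0.094). Against PWD it was higher for Hamp (3.52), Apol9b (2.95), Iigp1 (2.64), Ifi206 (2.58), Ccnd1 (2.57), Apol7c (2.54), Ifnb1 (1.28) and Nos2 (1.21), the last pair not called with a pseudocount of 0.1 TPM, and lower for Rtp4 (-2.58), Ccl5 (-2.53), Il12b (-2.49), Mmp13 (-2.18), Oas3 (-2.03) and Usp18 (-2.0). Both sets of differences share the 8 C57 libraries.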

How the results depend on the processing

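In C57 after LPS, 8279 genes were called, 7468 to 8307 with single libraries left out, and 592 of 758 list genes, 564 to 589. With a minimum change of 1 these became 1075 (447 higher, 628 lower) and 201. Higher and lower calls were 3348 and 3403 after median-of-ratios scaling, 2737 and 4152 after quantile normalization, and 4368 were lower in mice 3 and 4. The differences from B6 (1896; 1447 higher, 449 lower; 1528 to 2258 with libraries left out) became 3338 (1891 lower) after median-of-ratios scaling, 4394 (3677 and 717) without structural RNA, 229 (160 and 69) with the minimum change and 725 (473 and 252) in mice 1 and 2; 1243 were lower after quantile normalization and 285 in mice 3 and 4. The differences from PWD (1510; 793 and 717; 1249 to 1621) became 2835 (1420 and 1415) after median-of-ratios scaling, 2966 (1431 and 1535) after quantile normalization, 2730 (1328 and 1402) without structural RNA, 346 (166 and 180) with the minimum change and 2378 (291 and 2087) in mice 1 and 2; mice 3 and 4 gave 1982 higher and 270 lower. Nos2 against PWD was 1.21, but -0.18 with a pseudocount of 0.1 TPM. Single changes turned their sign for Ccl2 (0.22; -0.057 after quantile normalization) and, after median-of-ratios scaling, for Cs (0.13), Itgax (0.028), Nedd9 (0.31) and Tgfb1 (0.25). The cause was not tested for any of these.

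Equal replicate numbers deviated together only in part: the correlation of same-numbered libraries was 0.0513 to 0.176 over 12 pairs, and all 4 C57 libraries correlated best with their own number. With the replicate number as a block 8338 genes were called in C57, 2020 differed from B6 and 1542 from PWD, and 602 list genes were called. Low genes are limited by the unknown depth, and changes under about 0.3 by the choice of scaling.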

Other observations

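Gene families outside the lists were read by the stem of their symbols, for the 150 stems with 10 or more tested members, a grouping chosen after the data were seen. The Ifi stem, interferon-inducible genes named in part in the lists, rose in 16 of 19 members (84.2%) and fell in 2, with a median of 2.09. After median-of-ratios scaling 16 rose and none fell. The Parp stem, poly(ADP-ribose) polymerases and their relatives, parted: 7 of 12 rose, with Parp12, Parp14 and Parp9 the highest, and 3 fell, with Parp1, the DNA repair enzyme, the lowest (7 and 2 after that scaling). Among stems that fell, the tetraspanins (Tspan) fell in 10 of 12 members with a median of -0.85 (7 after median-of-ratios scaling), the small nucleolar RNA host genes (Snhg) in 12 of 14 with a median of -0.70 (8), the mitochondrial import genes (Timm) in 12 of 14 with a median of -0.56 (7) and the methyltransferase-like genes (Mettl) in 18 of 20 (9). Over all genes 10.4% rose and 52.2% fell on the deposited scale, and 25.3% rose and 25.7% fell after that scaling.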
